A study of Drosophila melanogaster with 2 samples.

Results

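The Drosophila melanogaster genome codes in the nucleus for the proteins of the mitochondrial ribosome, and the peaks of Hand-GFP at these genes are described here. The genes were chosen by symbol, as the protein-coding genes of the Ensembl annotation on dm6 whose symbol starts with mRpL (large subunit) or mRpS (small subunit). That gave 73 of 13945 protein-coding genes, 47 for the large and 26 for the small subunit, and the RefSeq description of all 73 names a mitochondrial ribosomal protein. Binding of the transcription factor Hand was assayed by chromatin immunoprecipitation and sequencing (ChIP-seq) with an anti-GFP antibody. The material was whole embryos of mixed sex, aged 6 to 24 hours, from a transgenic line that stably carries Hand with GFP joined to its C terminus. All samples belong to this 1 group, as biological replicates numbered 2 and 3 in the labels (n = 2). There was no sample without the fusion protein or of another stage or genotype to set against it, and whole embryos do not show in which cells a site was bound. The read depth is unknown.

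Mitochondrial ribosomes translate the few messages of the mitochondrial genome, which code for core subunits of the respiratory chain and the ATP synthase. Their RNAs are made inside the mitochondrion, while their proteins are made in the cytosol and imported, so the supply of each protein depends on a nuclear promoter. Many of these proteins have a counterpart in bacterial ribosomes and others are found in mitochondria alone. Hand belongs to the basic helix-loop-helix family, binds DNA as a dimer with Daughterless and is known for its role in the embryonic heart, the lymph gland and the visceral muscle. Such dimers bind short E-box words. In flies, genes for housekeeping functions often stand head to head, with start sites close together on opposite strands and a shared promoter region between them.

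The sequence at the summits is shown first, because it lets the strongest summits, most of which lay between head-to-head start sites, be read against the words that factors are known to bind. Each run is the plus strand of dm6 from the reference genome, 5′ to 3′, up to 75 bp on each side of a summit, and shortened where needed to hold at most 30 exonic bases. Capitals mark matches on either strand to 7 words searched. Those found here are the E-box CANNTG, its form CATCTG, the TATAAA word, the core of the M1BP motif and the DREF word TATCGATA. The first 5 are strong summits within 500 bp of a start site of mRpS23 (chr2L:13835395-13835545), mRpS10 (chr3R:15229458-15229608), mRpS2 (chr2L:4850510-4850660), mRpL20 (chr3L:13018064-13018214) and mRpL24 (chr2L:4945429-4945579), each shared with a neighbour's promoter. Those of mRpS6 (chr3L:4364362-4364512) and mRpL19 (chr3R:8673900-8674050) are shown because the nearest start site was the member's own. The last 2 are peaks listed for mRpL27 (chr2L:4458335-4458422) and mRpL28 (chr2L:4976995-4977145) whose summits lay at a neighbour's start, 3 bp from that of RpL27A and 47 bp from that of Gmd, and which hold promoter words.
mRpS23: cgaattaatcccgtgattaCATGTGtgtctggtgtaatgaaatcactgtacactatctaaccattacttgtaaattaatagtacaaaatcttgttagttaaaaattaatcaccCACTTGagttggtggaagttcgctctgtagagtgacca
mRpS10: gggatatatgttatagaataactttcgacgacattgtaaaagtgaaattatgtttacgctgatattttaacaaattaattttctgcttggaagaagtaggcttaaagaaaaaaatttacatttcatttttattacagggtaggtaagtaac
mRpS2: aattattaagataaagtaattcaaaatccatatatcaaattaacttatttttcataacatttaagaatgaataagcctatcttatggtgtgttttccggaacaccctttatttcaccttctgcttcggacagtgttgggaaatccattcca
mRpL20: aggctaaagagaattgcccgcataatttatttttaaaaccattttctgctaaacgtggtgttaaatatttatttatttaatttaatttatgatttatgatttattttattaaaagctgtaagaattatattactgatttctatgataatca
mRpL24: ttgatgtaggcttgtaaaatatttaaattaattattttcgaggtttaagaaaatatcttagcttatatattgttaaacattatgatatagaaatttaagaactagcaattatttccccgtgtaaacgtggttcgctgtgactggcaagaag
mRpS6: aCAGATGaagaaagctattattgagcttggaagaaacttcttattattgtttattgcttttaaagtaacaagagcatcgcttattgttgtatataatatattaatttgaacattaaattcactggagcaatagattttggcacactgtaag
mRpL19: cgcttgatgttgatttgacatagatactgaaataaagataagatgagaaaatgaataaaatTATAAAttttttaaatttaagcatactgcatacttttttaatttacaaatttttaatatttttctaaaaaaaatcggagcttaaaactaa
mRpL27: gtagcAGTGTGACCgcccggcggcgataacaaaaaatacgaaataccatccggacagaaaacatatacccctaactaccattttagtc
mRpL28: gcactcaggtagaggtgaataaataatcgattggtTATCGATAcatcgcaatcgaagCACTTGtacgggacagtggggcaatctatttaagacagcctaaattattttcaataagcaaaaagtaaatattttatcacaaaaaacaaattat
The mRpS10, mRpS2, mRpL20 and mRpL24 runs hold none of the words searched. The summits listed for mRpL41, mRpL46 and mRpL23 were stronger than those of mRpS2, mRpL20 and mRpL24 and are not shown. The runs at the mRpL46 and mRpL23 summits each hold TATAAA. The mRpS23 run holds 2 E-boxes, and the mRpS6 run holds CAGATG near its left end, which on the other strand reads CATCTG, the form reported for Hand with Daughterless. The mRpL19 run holds TATAAA, the mRpL27 run the M1BP core, and the mRpL28 run the DREF word and an E-box. The A and T share was 64.9% in the mRpS23 run, 78.8% in the mRpL20 run and 80.1% in the mRpL19 run.

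Of the 73 genes, 24 (32.9%) had a summit of the reproducibility-thresholded list in the gene or within 2 kb, where 25.7% of all protein-coding genes did. These were 16 of 47 genes for the large subunit and 8 of 26 for the small one (30.8%). A summit within 500 bp of one of the gene's own start sites was listed for 16 genes (21.9%), against 13.3% of all genes. The longer lists, which keep weak peaks, held a summit within 500 bp of a start for 46 genes in the pooled list (63.0%, all genes 48.9%), 37 in replicate 2 (50.7%, all genes 43.5%) and 53 in replicate 3 (72.6%, all genes 50.9%). With a window of 200 bp the pooled list held a summit for 30 members (41.1%, all genes 35.2%). The genes were picked with earlier results of these data known, so these counts describe them and were not tested.

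The excess over all genes depended on how a peak was given to a gene. Counting only summits inside the gene left 2 members (2.74%, all genes 10.2%), mRpL23 and mRpS9. Giving each summit to the gene with the nearest start site left 5 (6.85%, all genes 16.3%). Under both rules the members' share lay below that of all genes, while it lay above with a window around the gene of 1 kb (26.03% against 20.9%), 2 kb or 5 kb (49.3% against 37.3%). The members are short genes, with a median length of 909 bp against 2166 bp for all genes.

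The 24 members shared out 29 thresholded peaks, 1 each for 19 of them and 2 each for mRpL20, mRpL28, mRpL34, mRpL51 and mRpS16. The signal of a peak was computed by the authors against a control. In the thresholded list it comes from both replicates pooled and has no error. The weakest of all 3310 thresholded peaks had 92.55. The members' 29 peaks ran from 92.98 to 928.5 with a median of 153, and the median over all thresholded peaks was 136. Peaks near any start site had a median of 140.

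The strongest peaks belonged to 3 members. At mRpS23, which codes for a small-subunit protein known only from mitochondrial ribosomes, the peak at 2L 13835309-13835619 (dm6) had a pooled signal of 928.5, rank 20 of the list. Replicate 2 gave 326.9 and replicate 3 gave 599.7. The summit lay 398 bp upstream of mRpS23 and 94 bp upstream of CenG1A, which codes for a GTPase-activating protein of the centaurin family and stands head to head with it, 492 bp away.

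At mRpL41, a large-subunit gene also with no bacterial counterpart, the pooled signal was 815.5 (rank 36), with 292.6 in replicate 2 and 524.2 in replicate 3. This summit was 131 bp upstream of the mRpL41 start, and no other gene started within 500 bp of it. At mRpS10, whose bacterial counterpart sits in the head of the small subunit, the pooled signal was 787.2 (rank 40), with 262.2 and 519.2 in replicates 2 and 3. That summit stood 132 bp upstream of mRpS10 and 125 bp upstream of Art3, a gene for a protein arginine methyltransferase, close to the middle of the 257 bp between them. In both replicates these 3 peaks were stronger than every other peak assigned to a member.

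**Figure D1:**
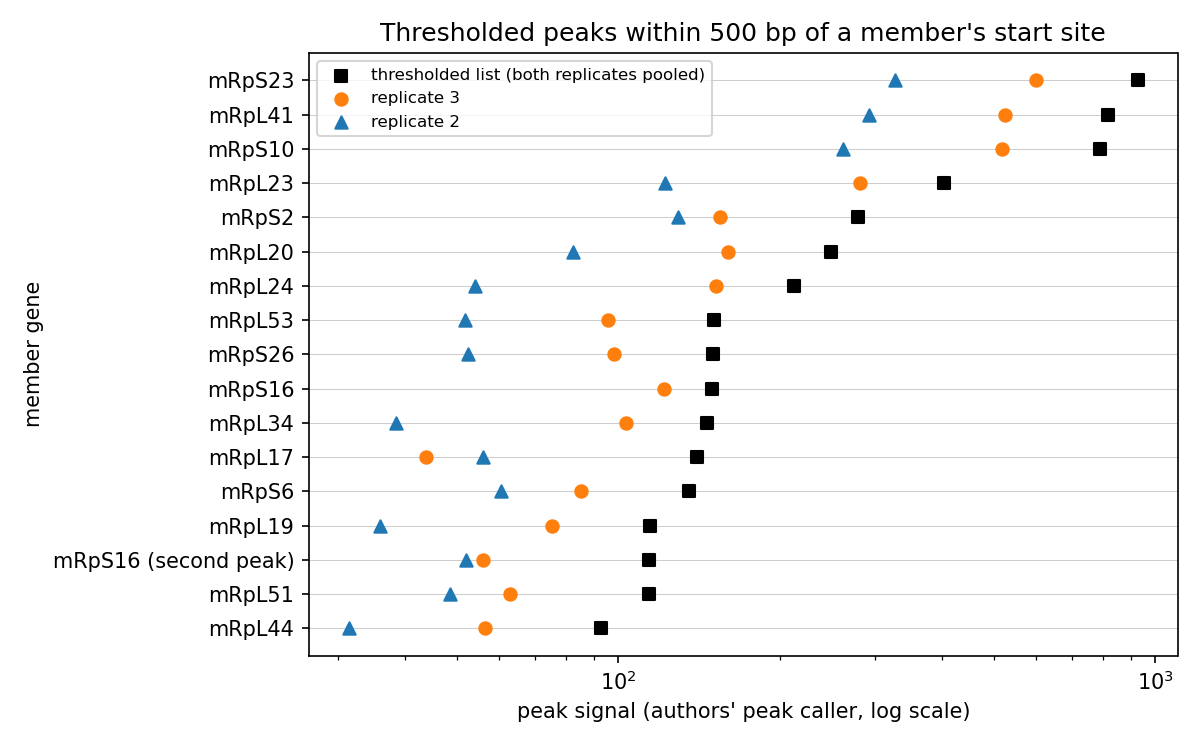
Signal of the 17 thresholded peaks within 500 bp of a start site of 16 members, on a log axis, in the pooled thresholded list (squares) and at the matching summit within 100 bp in the lists of replicate 2 (triangles) and replicate 3 (circles). The peaks of mRpS23, mRpL41 and mRpS10 stand apart at 787.2 and above, and the mRpL17 peak alone has a lower value in replicate 3 than in replicate 2. The stronger mRpS16 peak has no triangle because replicate 2 lists no summit there.

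Another 4 members had start-site peaks of intermediate strength. The peak at mRpL23, whose bacterial counterpart lies at the exit of the peptide tunnel, had a signal of 404.8 pooled, 122 in replicate 2 and 281.8 in replicate 3. By the nearest start site, it was the only one of the 17 start-site summits to lie downstream. It stood 87 bp inside mRpL23 from that start, with CG9004 starting 137 bp away. However, mRpL23 has 3 start sites, and the matching summit in replicate 2 lay 57 bp upstream of the start nearest to it. The direction at this gene thus depends on which start is taken. mRpS2 had 279.6 pooled with 129.1 and 154.8 in the replicates, 166 bp upstream and only 56 bp from Mon1, which codes for a part of the complex that activates Rab7. mRpL20 had 248.5 pooled with 82.4 and 159.7, 127 bp from Icmt, the gene of the enzyme that methylates prenylated cysteine. mRpL24 had 212 pooled with 53.98 and 152.2, and lay 75 bp from betaggt-I, the gene of a geranylgeranyl transferase subunit. The last of these had the highest ratio of replicate 3 to replicate 2 among the members' peaks, 2.82.

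The strongest start-site peaks of the other 9 members lay between 92.98 and 150.8. mRpL53 (150.8) had its summit 4 bp from a start of AGO1, the Argonaute gene of the microRNA pathway, and 174 bp from its own. mRpS26 (150.1) shared its peak with CG13698. mRpS16 had peaks of 149.2 and 114.1, with summits 61 and 287 bp from the nearest start of combgap (cg), a zinc-finger gene. Both of these summits lay downstream of that cg start. mRpL34 (146) faced Dg, which codes for dystroglycan, and mRpL17 (140) faced Tudor-SN, a gene for a staphylococcal nuclease domain protein. mRpS6 (135.4) faced Cip4, mRpL51 (113.8) faced Uba4, and mRpL44 (92.98) faced Snr1, a subunit of the Brahma chromatin remodelling complex. mRpL19 (114.7) had no other start site within 500 bp.

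Replicate values followed the whole list. The thresholded list was itself chosen by agreement between the replicates, so presence in both was largely fixed in advance. A summit within 100 bp was found in both replicate lists for 28 of the members' 29 peaks and for 3015 of all 3310. The exception was the stronger mRpS16 peak, which had 121.7 in replicate 3 and no summit in replicate 2, whereas the weaker one had 51.98 and 55.88. The median signal of the members' peaks was 55.0 in replicate 2 and 103 in replicate 3, against 51.4 and 88.9 over all thresholded peaks. The ratio of replicate 3 to replicate 2 had a median of 1.91 (0.784 to 2.82) for the members' peaks, and 1.83 with quartiles at 1.45 and 2.30 for all. The lists were not rescaled to each other, so a ratio above 1 is no sign of more binding. At mRpL17 the summits matched within 100 bp had 55.96 in replicate 2 and 43.89 in replicate 3. Replicate 3 also listed a stronger summit of 81.03, 130 bp from the pooled one, so the lower value in replicate 3 depends on the matching distance.

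**Figure D2:**
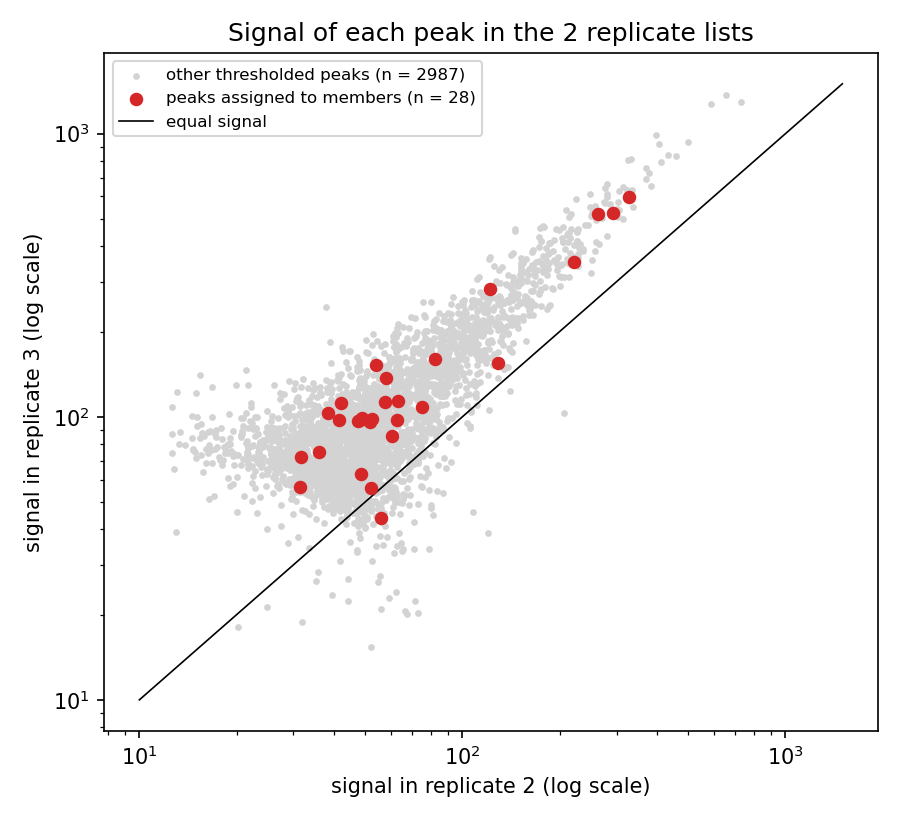
Signal of each thresholded peak in the list of replicate 2 (x axis, log scale) and of replicate 3 (y axis, log scale), for 28 peaks assigned to members (red) and 2987 others (grey) that had a summit within 100 bp in both lists. The red points lie within the grey cloud, and 1 of them, the mRpL17 peak, falls below the line of equal signal.

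Most of these peaks stood closer to another gene's start than to the member's. All 29 were in reach of more than 1 gene under the 2-kb rule, with a median of 3 genes, while 47.4% of all thresholded peaks were. A gene other than a member started within 500 bp of 26 of the 29 summits. The nearest start site was the member's for 5 peaks, those of mRpL41, mRpL23, mRpS6, mRpL19 and the weaker mRpL34 peak, and a neighbour's for the other 24. Of the 17 start-site peaks, 15 (88.2%) also had a non-member start within 500 bp. Among all 1643 thresholded peaks near a start site, 26.8% had starts of 2 or more genes within that distance.

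The member's start was the nearest to such a peak for 5 of 16 members (31.25%), and over all genes with a start-site peak for 1471 of 1855 (79.3%). Among genes with a head-to-head partner within 1000 bp it was so for 4 of 14 members and for 591 of 929 genes (63.6%). The summits lay 87 to 464 bp from the member's nearest start, with a median of 164 bp over the 17 peaks. By that start, 16 of the 17 were upstream. Taking 1 peak a gene, the median was 161 bp for members and 152 bp for all 1855 genes, of which 78.3% had their summit upstream.

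**Figure D3:**
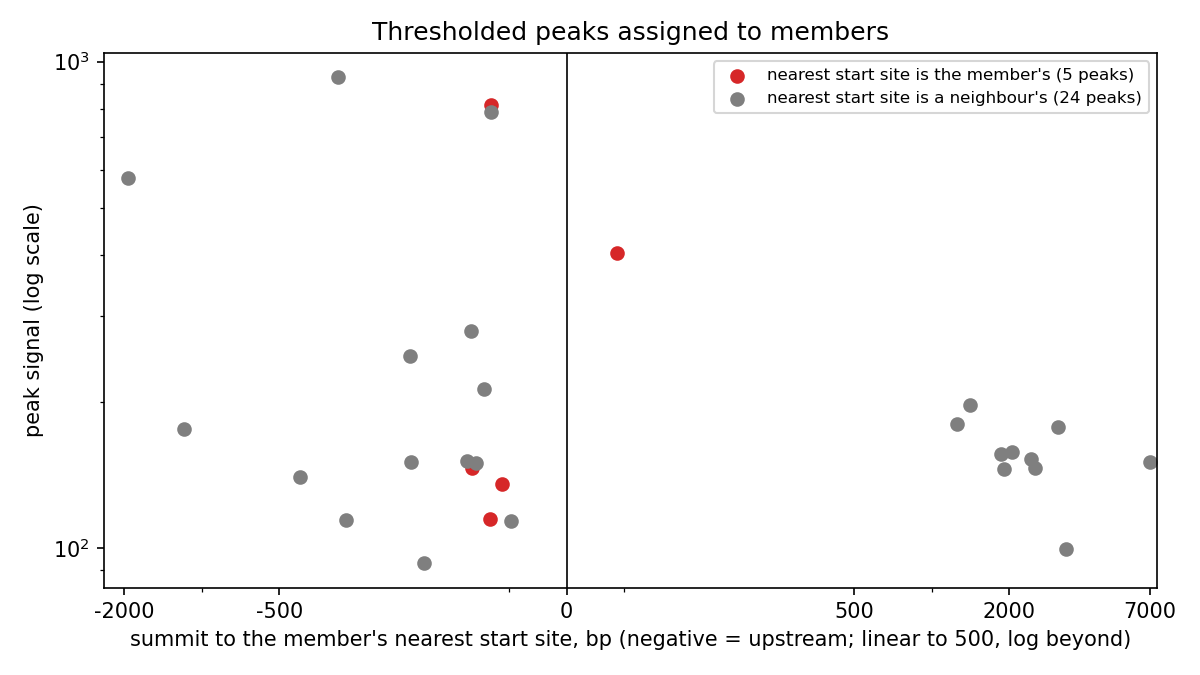
Distance from the member's nearest start site (x axis, bp, negative upstream, linear within 500 bp and log beyond) and pooled signal (y axis, log scale) of the 29 thresholded peaks assigned to members. Red marks the 5 summits whose nearest start site is a member's and grey the 24 nearer to a neighbour. All but 1 of the summits within 500 bp lie upstream, and that 1 is mRpL23's.

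Head-to-head arrangement was common among these genes. A gene on the opposite strand started within 1000 bp upstream of 56 of the 73 members (76.7%), against 4648 of all genes (33.3%), and the median gap was 287.5 bp. Of the 16 members with a start-site peak, 14 had such a partner, and at 13 the same summit was also within 500 bp of the partner's start. In these 13 pairs the summit was nearer the partner in 10, with a median distance of 164 bp to the member and 94 bp to the partner. It lay between the outermost starts of the 2 genes in 9, and the gap in the pairs ran from 24 bp at mRpL23 to 492 bp at mRpS23. In mRpL23, mRpS6 and mRpL34 the member was the nearer one. The distances were 87 bp against 137 bp from CG9004, 113 bp against 335 bp from Cip4 and 164 bp against 220 bp from Dg.

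Among genes with a head-to-head partner the members' shares were closer to those of all genes. A thresholded summit in the gene or within 2 kb was listed for 19 of 56 such members (33.9%) and 34.3% of all such genes, and a start-site summit for 14 (25%) and 20.0%. In the pooled list the start-site shares were 71.4% and 65.6%. Among the 17 members without a partner, 2 (11.8%) had a start-site summit, mRpL53 and mRpL19, and 9.96% of all such genes did. A summit in the gene or within 2 kb was listed for 29.4% of these members and 21.4% of all such genes. Gene length moved the comparison the other way. Of genes up to 3 kb long, 32.4% of members and 18.2% of all had a summit in reach, and with both conditions the shares were 33.9% and 28.55%.

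**Figure D4:**
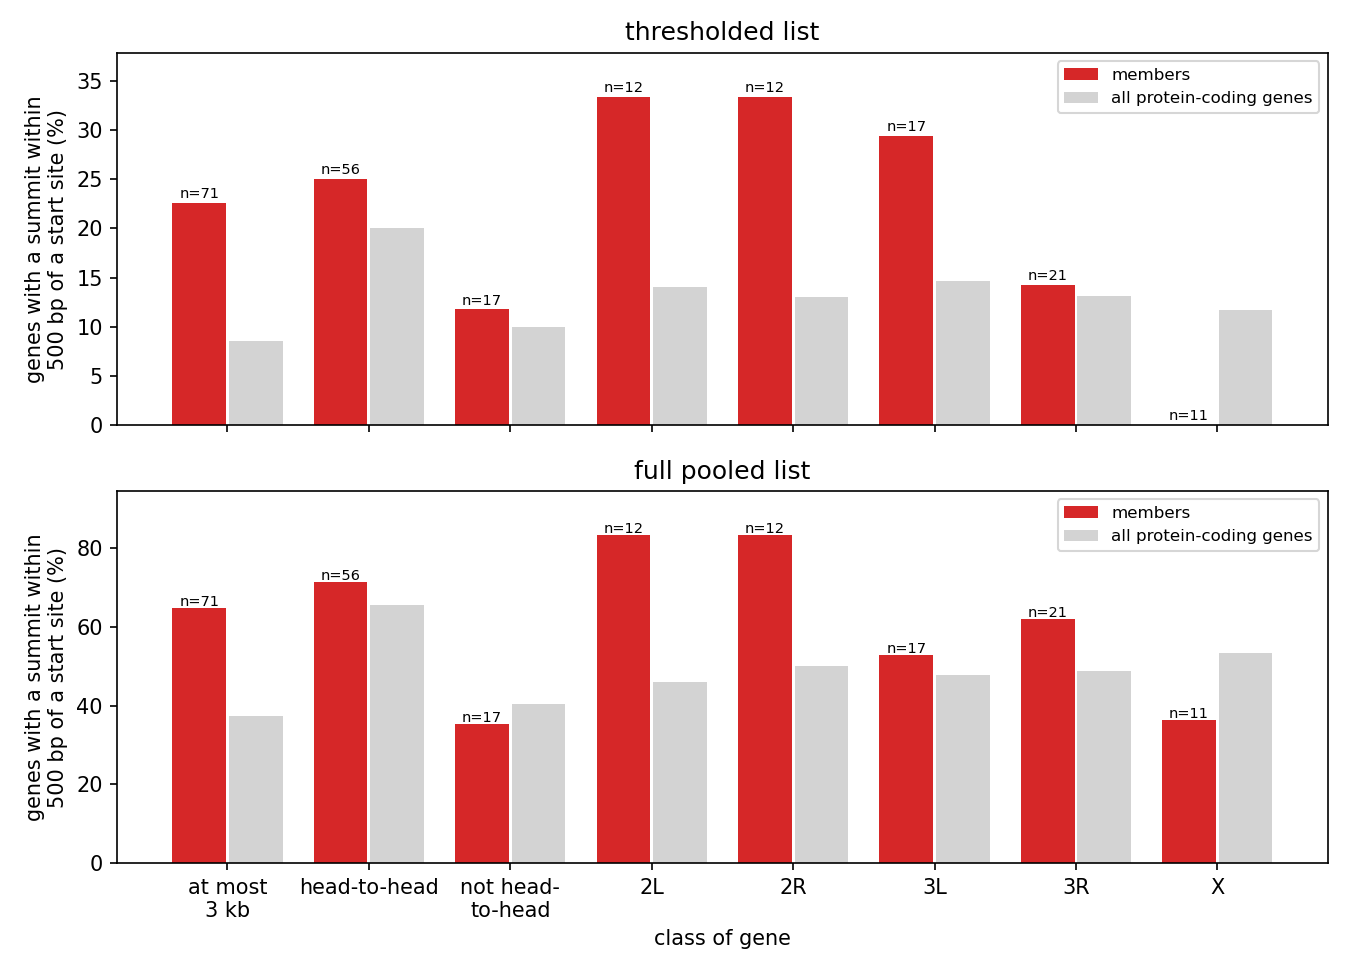
Share of members (red, n above each bar) and of all protein-coding genes (grey) with a summit within 500 bp of a start site, by gene length, head-to-head partner within 1000 bp and chromosome arm, in the thresholded list (top) and the full pooled list (bottom). Among head-to-head genes the thresholded shares are 25% and 20.0%, and no member on the X chromosome has a thresholded summit.

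None of the 11 members on the X chromosome had a thresholded summit in reach, where 25.4% of all X-linked genes did, and the pooled list had a start-site peak at 4 of them (36.4%, all X-linked genes 53.3%). These 4 pooled signals were 70.91 at mRpL33, 62.92 at mRpS14, 42.84 at mRpS30 and 26.82 at mRpL22, named after their values were seen. On the autosomal arms the shares with a summit in reach were 7 of 12 members on 2L (58.3%, all genes 26.1%), 4 of 12 on 2R (33.3%, 24.9%), 7 of 17 on 3L (41.2%, 27.35%) and 6 of 21 on 3R (28.6%, 25.1%). With 11 members an absence on X rests on few genes.

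By role, both subunits and both evolutionary groups were represented, and differences between them were not tested. A start-site peak was listed for 21.9% of all members and 13.3% of all protein-coding genes. The start-site peaks of 10 large-subunit members had a median signal of 148 (92.98 to 815.5), and those of 6 small-subunit members 215 (135.4 to 928.5), and the ranges overlapped. Proteins with a counterpart in bacterial ribosomes are coded by 44 members, of which 10 had a start-site peak, with a median of 181 (114.7 to 787.2). The 29 genes for proteins of mitochondrial ribosomes alone included 6, with a median of 150 (92.98 to 928.5). This grouping was made after the values were seen. It mostly follows the naming of the mammalian proteins, in which mRpS30 and mRpS18A belong to the large subunit. mRpS28 was placed among the 29.

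The other 12 of the 29 peaks lay more than 500 bp from a member's start, and 11 of them stood within 500 bp of another gene's. The strongest, 575.3 pooled with 221.9 in replicate 2 and 353.4 in replicate 3, was 1933 bp upstream of mRpL46 and 127 bp upstream of PolD2, a DNA polymerase delta subunit gene. The peak listed for mRpL13 (196.5) stood 164 bp from CG10602. Those of mRpL27 (179.7) and mRpL50 (146.2) stood 3 bp and 68 bp from the cytosolic ribosomal protein genes RpL27A and RpL18. Peaks listed for mRpL28 (177.5 and 99.61) were at Gmd and CG3792, that for mRpL40 (157.7) at mgr and Irbp, that for mRpS24 (155.9) at TBC1d7 and Myo95E, and the second for mRpL51 (152.6) at CG13097 and PIG-U. mRpS9, the longest member at 13391 bp, had its peak (150.3) within the gene, 7021 bp from its own start and 176 bp from that of wtrw, a TRP channel gene. The 1 peak away from every start was the upstream peak of mRpL34 (175.4), 788 bp from Dg.

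Weak peaks were also listed among the 49 members without a thresholded summit in reach. The pooled list had a start-site peak at 26 of them, with signals from 26.82 to 86.32 and a median of 57.2. Of all protein-coding genes, with or without a thresholded summit, 48.9% had a pooled start-site peak. The share among all genes without a thresholded summit was not computed, nor was their division between the replicate lists. Of the 26, 14 had a start-site peak in both replicate lists, 11 in replicate 3 alone and 1 in replicate 2 alone. Another 9 members had a start-site peak only in the list of replicate 3, and 2 only in that of replicate 2. Just under the weakest thresholded peak were mRpL21 with 86.32, mRpL9 with 85.4, mRpS29 with 78.27, mRpL42 with 78.18 and mRpS17 with 76.86. Just above it were mRpL44 with 92.98, the weaker mRpL28 peak with 99.61 and mRpL51 with 113.8.

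Replicate values at this margin ran from nearly equal to listed in 1 replicate only. mRpL21 had 27.58 in replicate 2 and 76.53 in replicate 3, and mRpS29, the counterpart of the mammalian protein DAP3, had 26.5 and 48.66. mRpL9 had 41.44 and 42.36, and mRpL42 had 41.58 and 43.34. mRpS17 had 67.17 in replicate 3 and no start-site peak in replicate 2. Over all 46 members with a pooled start-site peak the median of the strongest was 69.55, against 59.5 over all genes with one. In replicate 2 these medians were 31.4 and 25.7, and in replicate 3 they were 42.4 and 37.8.

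**Figure D5:**
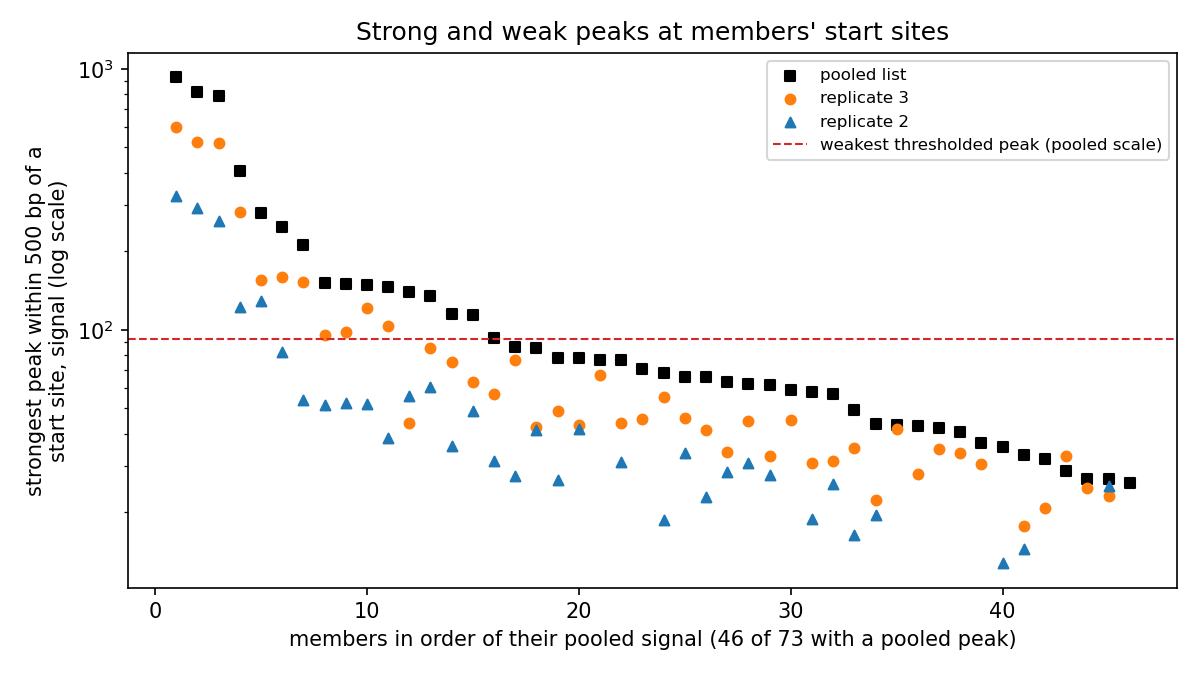
Strongest peak within 500 bp of a start site for the 46 members with one in the pooled list, in order of pooled signal (x axis), with signal on a log y axis for the pooled list (squares), replicate 3 (circles) and replicate 2 (triangles). The dashed line is the weakest thresholded peak, 92.55 on the pooled scale. 16 members lie above it, and the missing triangles and circles are members without a start-site peak in that replicate's list.

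No list held a peak within 500 bp of a start of 15 members, a count for which no share over all genes was computed. The first 10 in genome order were mRpL13, mRpL54, mRpL46, mRpS35, mRpS34, mRpL15, mRpS5, mRpS18A, mRpL37 and mRpL40, of which mRpL13, mRpL46 and mRpL40 had a thresholded summit farther off within 2 kb. Pooled summits nearest to the other 7 stood 1349 bp from mRpS18A, 1922 bp from mRpL54 and 3615 bp from mRpS35 at the closest. mRpS5 lies at 3L 24537236-24543534 (dm6), in pericentromeric sequence, and its nearest pooled summit was 1444936 bp away. A gene missing from every list shows only that no summit was listed at this unknown depth.

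A pair of mitochondrial ribosomal proteins is coded by genes with other names, technical knockout (tko), the gene of the small-subunit protein of the decoding centre and a known bang-sensitive locus, and bonsai. Neither had a thresholded summit. At tko the pooled list had a start-site peak of 35.45, with 29.76 in replicate 3 and none in replicate 2. At bonsai only replicate 3 listed a peak, with 18.68, near the low end of its list, which starts at 14.57.

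Other genes of mitochondrial and cytosolic protein synthesis give a scale for these shares. Of 45 other genes of mitochondrial gene expression (polymerases, tRNA synthetases, translation factors), 13 (28.9%) had a thresholded summit in reach and 2 (4.44%) at their own start. PNPase, the gene of the mitochondrial polynucleotide phosphorylase, had 856.5 pooled with 275.3 and 573.3 in replicates 2 and 3, 83 bp upstream of its start, and GatA, a subunit of the glutamyl-tRNA amidotransferase, had 164.7 with 53.47 and 114.1. The strongest of the others were distant, 359.9 at 3668 bp from the start of CysRS-m, 316.6 at 1028 bp from LeuRS-m and 286.9 at 3273 bp from mTerf5. Of 88 genes for respiratory chain and ATP synthase subunits, 15 (17.0%) had a summit in reach and 5 (5.68%) at their start. Cytosolic ribosomal protein genes stood highest, with 68 of 93 (73.1%) in reach and 60 (64.5%) at their start. The members lay between these, at 32.9% and 21.9%, and no test was made.

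E-boxes were found at few of the members' summits. Within 50 bp of the summit an E-box (CANNTG) was present at 5 of 29 members' peaks (17.2%), against 34.7% of all thresholded peaks, and CATCTG at 0 against 2.66%. Nearly all the members' peaks lay near a start site, as did 1643 of all 3310. Word shares at those 1643 alone were not computed. The members' windows were rich in A and T, with a median of 69.3% (49.5% at mRpL53 to 88.1% at the mRpL40 peak), against 66.3% at all thresholded summits and 64.4% at those near a start. TATAAA was found in 8 windows (27.6%, all 22.05%) and the GAGAG word in 3 (10.3%, all 13.9%).

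Some words stood in more of the members' promoters than of all promoters, and GAGAG stood in fewer. The promoter was taken from 250 bp upstream to 50 bp downstream of the outermost start, and words were sought on both strands. TATCGATA, bound by the factor DREF of growth and replication genes, was present at 15 members (20.55%) and at 9.36% of all promoters. The M1BP core GGTCACACT was present at 8 (11.0%, all 6.05%). The nuclear respiratory gene element, searched as TTACATAA or TTACGTAA or TTATATAA or TTATGTAA, was present at 6 (8.22%, all 5.18%), and TTATATAA can overlap TATAAA. An E-box was present at 67 (91.8%, all 77.2%), CATCTG, which is 1 of its forms, at 11 (15.1%, all 11.3%), TATAAA at 34 (46.6%, all 45.8%), and GAGAG at 12 (16.4%, all 29.7%). The median A and T share of these promoters was 65.3%, against 62.0% for all. Of the 15 members with the DREF word 4 had a start-site peak, and of the 8 with the M1BP core 1 had. The share of all genes with either word that had a start-site peak was not computed, so these counts have no background. With 250 bp on each side of the start, the nuclear respiratory gene element was present at 12 members (16.4%, all 7.46%) and GAGAG at 21 (28.8%, all 43.8%). A match shows only that the letters are present.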

How the data were processed

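Peak lists of ChIP-seq on dm6 were used, per the labels for whole embryos, with chromatin sonicated to 200 to 800 bp. A listing deposited beside the peak files records that the authors called peaks in either replicate and in both pooled, against 1 control alignment, and thresholded them by their reproducibility (IDR). Aligner, caller, settings, IDR threshold and depth: not given in the sources used here. The deposited signal is the authors' value per peak, not rescaled between lists. Controls were not analysed here, nor were the lists of the older build.

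Summits were placed against protein-coding genes of Ensembl release 115, with sequence from the RefSeq genome of the same build. A gene had a peak if a summit lay in it or within 2 kb, and a start-site peak if one lay within 500 bp of any annotated start. Replicate values are those of the strongest summit within 100 bp. A head-to-head partner is the nearest gene on the opposite strand whose outermost start lies upstream, at most 1000 bp away. Words were counted in 101 bp at the summit.

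Named genes are all members with a start-site peak, the 10 members with the strongest other peaks, the 5 with the strongest pooled start-site peaks and no thresholded one, 10 with no start-site peak, neighbours sharing a peak, tko, bonsai, and 5 genes of mitochondrial gene expression. In that last list 1 symbol, mEFG2, was not matched. Members and lists were chosen with earlier results of these data known, so no test was made. Alternatives were other windows, the stronger 1655 peaks, the nearest gene, and each replicate's own strongest peaks. Programs used Python 3.11.15 with matplotlib 3.10.9, and the placement of summits was tested on simulated data.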

Additional observations from a re-analysis of the deposited data

How the results depend on the processing

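The count of members with a thresholded summit in reach, 24 as reported, was 19 with a window of 1 kb (all genes 20.9%), 36 with 5 kb (37.3%) and 21 for the stronger 1655 peaks (28.8%, all genes 15.4%). It moved to 2 with the gene body alone and to 5 with the gene nearest by start site, since few summits lay in these genes or nearest their starts. Members with a pooled start-site peak moved from 46 to 30 with a 200-bp window (41.1%, all genes 35.2%). In place of the thresholded list, the 3310 strongest peaks of a single replicate gave 27 members in reach without replicate 2 (37.0%, all genes 26.3%; 23 shared with the reported 24) and 25 without replicate 3 (34.25%, all genes 24.5%; 22 shared). Start-site counts were 16 both times (21.9%, all genes 13.6% and 12.7%), with 14 shared, and mRpL44 was lost each time. The median distance to the nearest summit moved from 161 bp to 152 bp and 156.5 bp. Promoters of 250 bp on each side moved the E-box share to 97.3% (all promoters 91.6%), the GAGAG share to 28.8% (43.8%) and the nuclear respiratory gene element to 16.4% (7.46%). With 1 group and shared peak lists no interval is possible, and the unknown depth limits what the absence of a weak peak shows. No paired analysis was possible because there is 1 group.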
